A study of Mus musculus with 768 samples.

Results

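Expression of 10 mouse genes of bone morphogenetic protein (BMP) signalling and the inhibitor of DNA binding (Id) family was followed in cochlear organoids over 1 week of culture. They were the ligand genes Bmp2 and Bmp4, the receptor gene Bmpr1a, the transducer gene Smad9, the inhibitory Smad genes Smad6 and Smad7, and Id1, Id2, Id3 and Id4. The genes were picked by symbol, 10 of the 52636 genes in the deposited tables, with earlier comparisons of these culture days known. Their day-to-day differences are therefore given as a description, with no p-value, and whether the fit over all genes called them supports nothing. All cultures started from cells of the greater epithelial ridge, the epithelium on the inner side of the hair cells, enriched by flow cytometry from the cochleae of Fgfr3-CreERT2/Ai14-tdTomato/Sox2-GFP mice on postnatal day 2. The 3 groups, culture days 1, 3 and 7, shared a DMEM/F-12 medium with N-2, B-27, ampicillin, EGF, FGF2 and IGF1. It also held CHIR99021, which inhibits GSK3, with valproic acid, 2-phospho-L-ascorbic acid and the TGFβ receptor inhibitor 616452. No BMP or BMP inhibitor is named in that medium. Single cells were picked by hand after trypsin dissociation and made into SmartSeq2 libraries, a full-length method without molecular identifiers.

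BMP ligands bind pairs of type I and type II receptors, of which Bmpr1a encodes a type I chain, and the receptors phosphorylate Smad1, Smad5 and Smad9, which enter the nucleus with Smad4. The Id genes are among the direct targets of these Smads in many cell types, and Smad6 and Smad7 are targets that feed back to inhibit the receptors. Id proteins have a helix-loop-helix domain but no basic region to bind DNA, so they hold E proteins (Tcf3, Tcf4, Tcf12) away from tissue-specific partners such as ATOH1, the transcription factor that hair cells require.

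Each sample is 1 cell, and the replicate label was taken as the culture, the unit of comparison. There were 3 cultures of day 1, 3 of day 3 and 5 of day 7, of whose cells 94.8%, 89.4% and 93.8% passed the filters, 37 to 86 per culture. A culture held 26391412 to 72483565 reads. Nothing in the labels says that cultures came from separate animals, so tests measure only the spread between these cultures. For the labelled tissue, all 11 genes of a greater epithelial ridge list had a read on every day. A read alone is a low bar, as all 7 genes of an immune list also had one on day 7. The greater epithelial ridge list summed to 9936 to 14226 CPM (counts per 1000000 reads after TMM scaling) in the day 1 cultures, 4241 to 8304 on day 3 and 2451 to 5298 on day 7. Its most abundant gene was Tectb on day 1 (mean 8308 CPM) and day 3 (3622 CPM) and Tecta on day 7 (1546 CPM). A list of 6 epithelial genes summed to 3522 to 5506, 3595 to 5498 and 1877 to 2965 CPM on days 1, 3 and 7. A list of 7 supporting cell genes summed to between 98.9 CPM in a day 7 culture and 363.5 CPM in a day 1 culture. Of 10 endothelial genes, a cell type known for high Id1 and Id3, Pecam1, Kdr, Tie1 and Cldn5 had 0 reads in every culture. The endothelial sum was 38.4 to 45.9 CPM on day 1, 34.4 to 55.4 on day 3 and 21.5 to 44.3 on day 7, with Egfl7 the most abundant. On day 7 the other lists summed to 3.84 to 12.3 CPM for mesenchyme, 89.9 to 110.4 for glia with Sox10 leading, 9.58 to 19.9 for neurons, 0.372 to 4.16 for immune cells and 21.5 to 40.5 for hair cells. The part of these marker levels in the differences described was not tested.

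Promoters are shown for Id2 and Id3, which were high together on day 7, for Id4, which was low, and for Smad6, whose window holds the palindromic Smad element. Each is the 300-base window of RefSeq on GRCm38.p6, 250 bases before to 50 after the transcription start, written 5′ to 3′ on the strand of the gene. Such windows were used for 7 of the 10 genes, without Id1, Bmp2 and Smad7. Capitals mark matches to GGCGCC (a GC-rich element bound by Smad1 and Smad5), to CAGAC or its complement GTCTG (a Smad box), or to GTCTAGAC (the palindromic Smad element). The windows are chr12:25096043-25096342, minus strand, for Id2, chr4:136143572-136143871, plus strand, for Id3, chr13:48260866-48261165, plus strand, for Id4 and chr9:64022010-64022309, minus strand, for Smad6.
Id2: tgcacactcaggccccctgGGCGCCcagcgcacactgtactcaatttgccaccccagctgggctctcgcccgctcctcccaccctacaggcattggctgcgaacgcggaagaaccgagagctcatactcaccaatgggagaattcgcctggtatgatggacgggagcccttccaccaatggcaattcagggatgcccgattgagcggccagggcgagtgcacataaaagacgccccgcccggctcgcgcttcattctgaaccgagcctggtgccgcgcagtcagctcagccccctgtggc
Id3: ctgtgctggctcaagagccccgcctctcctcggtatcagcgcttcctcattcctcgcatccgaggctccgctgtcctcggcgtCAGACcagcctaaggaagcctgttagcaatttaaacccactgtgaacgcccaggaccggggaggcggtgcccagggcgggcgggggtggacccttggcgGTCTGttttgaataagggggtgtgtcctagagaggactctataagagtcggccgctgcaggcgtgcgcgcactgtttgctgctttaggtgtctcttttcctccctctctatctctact
Id4: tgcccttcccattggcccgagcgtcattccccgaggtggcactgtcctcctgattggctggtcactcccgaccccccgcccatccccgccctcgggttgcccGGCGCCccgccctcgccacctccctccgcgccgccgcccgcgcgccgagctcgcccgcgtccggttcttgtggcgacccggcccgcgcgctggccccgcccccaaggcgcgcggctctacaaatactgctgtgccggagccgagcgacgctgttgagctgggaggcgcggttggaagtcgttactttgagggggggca
Smad6: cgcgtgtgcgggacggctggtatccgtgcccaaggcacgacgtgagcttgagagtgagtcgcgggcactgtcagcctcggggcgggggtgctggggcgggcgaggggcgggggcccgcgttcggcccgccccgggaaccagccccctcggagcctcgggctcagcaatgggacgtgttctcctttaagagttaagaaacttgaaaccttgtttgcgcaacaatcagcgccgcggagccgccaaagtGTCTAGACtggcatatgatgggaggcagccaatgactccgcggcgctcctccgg

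Both strands were searched, and no 2 matches shared a base. The Id2 and Id4 windows each held 1 GGCGCC, as did those of Bmpr1a and Smad9. The Id3 window held CAGAC and GTCTG once each, the Smad6 window held 1 GTCTAGAC, and the Bmp4 window held no match. Of 32851 mouse promoter windows of the same length, 11.9% held GGCGCC, 49.6% held CAGAC or GTCTG and 0.213% held GTCTAGAC. The Smad6 window was picked for display by its match, so nothing is read from how rare that match is. The part of these matches in the levels of the genes was not tested. These matches describe letters in the window and not occupied sites.

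In GENCODE M21 (GRCm38), Id1 lies at chr2:152736251-152737410 and Bmp2 at chr2:133552159-133562885, both on the plus strand. Id2 (chr12:25093799-25097140) and Smad6 (chr9:63953076-64022059) lie on the minus strand. Id3 (chr4:136143497-136145755), Id4 (chr13:48261228-48266026) and Smad9 (chr3:54755582-54801257) lie on the plus strand, and Smad7 lies on chromosome 18. All 8 are protein-coding. No M21 position is given for Bmp4 and Bmpr1a, since the gene version in the tables is not the one in M21. Id4 overlaps 2 opposite-strand transcripts, A330033J07Rik, which had 0 reads, and Gm49291, which the tables do not list. The strand setting of the counting is not given in the sources used here, so Id4 reads cannot be assigned to a strand.

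The 10 genes split into 3 patterns over the week. Id1, Id2 and Id3 were higher in every day 7 culture than in any culture of day 1 (8.71% of all genes tested) or day 3 (2.99%), at 21.2-fold, 4.73-fold and 12.4-fold the mean level of day 1. Id4, Bmp2, Bmp4 and Smad9 had a lower mean on day 7 than on day 1, with Bmp2 at 1 read over 5 cultures and Smad9 at 0. The day 1 means of Bmp4 and Smad9 each rested on 1 cell. Id4 and Bmp2 had every day 7 culture below every day 1 culture, as had 9.06% of all genes, and Bmp2 also below every day 3 culture (5.14%). Bmpr1a, Smad6 and Smad7 overlapped between all 3 days. In a summed culture, fewer cells with a transcript and less transcript per cell cannot be told apart.

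**Figure D1:**
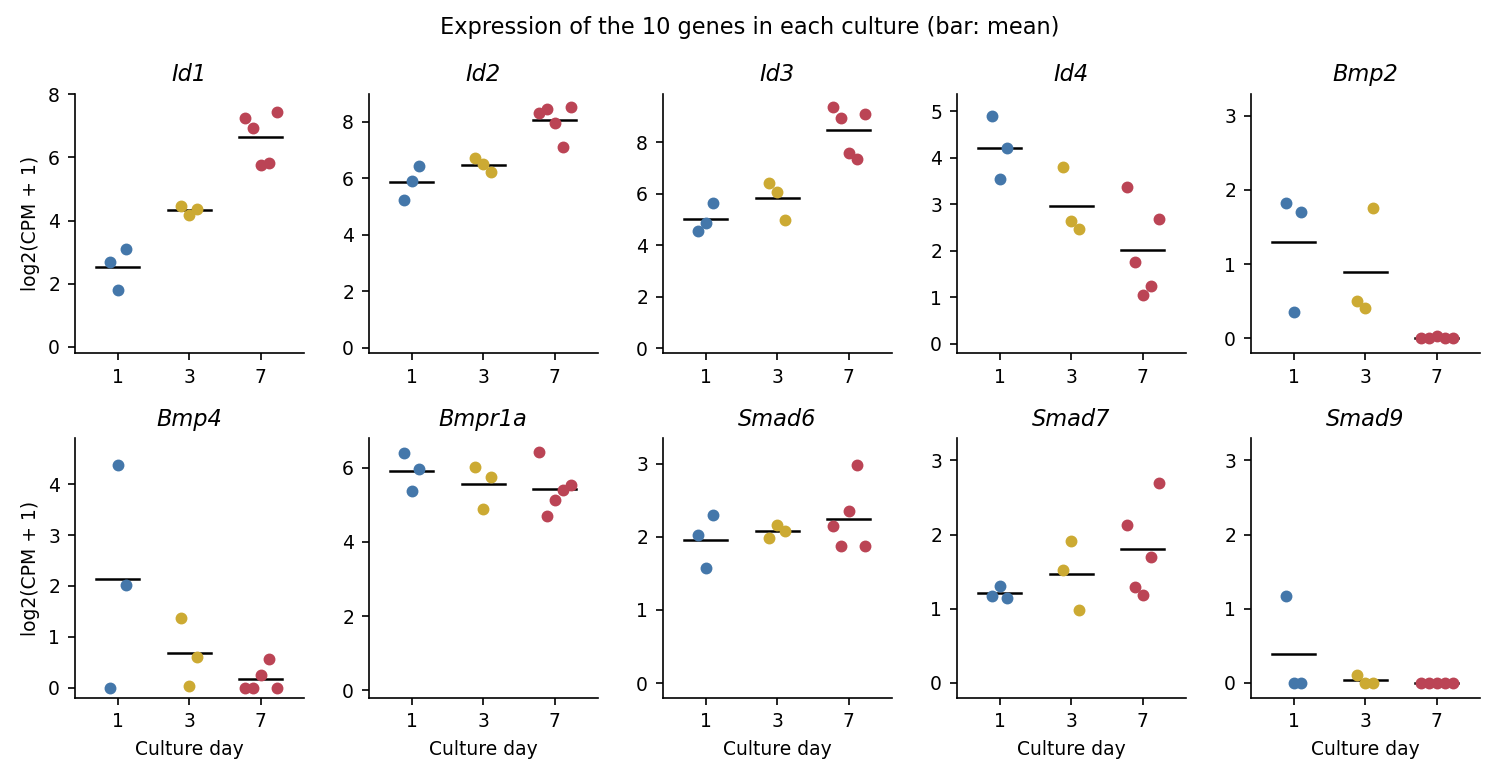
Level of each of the 10 genes, as log2(CPM + 1) on the vertical axis, in each culture of days 1, 3 and 7 (3, 3 and 5 points; bar, mean of the cultures). Each vertical axis has its own range. Id1, Id2 and Id3 sit above all earlier cultures on day 7, Id4 falls below all day 1 cultures, and Bmp2 lies at or near 0 on day 7.

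Among the ligands, Bmp2 was at 2.53, 0.284 and 2.27 CPM in day 1 cultures 1 to 3 and at 0.424, 0.332 and 2.37 CPM in day 3 cultures 1 to 3. On day 7 it was at 0.0181 CPM in culture 3 and 0 in the other 4 cultures. Days 1 and 3 overlapped, and every day 7 culture lay below every earlier culture. All of day 7 held 1 read, and the day 1 level was 342.2-fold that of day 7 with a 95% counting interval of 60.6 to 13596. Because PCR copies cannot be told from molecules here, this and all other intervals and limits cover counting error only. The fitted log2 difference, day 7 against day 1, was -8.06 (SE 1.47), a value that depends on how 0 counts are treated and ranged from -9.44 to -1.46 over 22 alternative settings.

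Bmp4, the ligand that marks the outer side of the developing cochlear duct, was at 0, 19.9 and 3.03 CPM in the day 1 cultures. It was at 1.60, 0.0195 and 0.524 CPM on day 3 and at 0, 0, 0.181, 0.486 and 0 CPM in day 7 cultures 1 to 5. The groups overlapped, since day 1 culture 1 was at 0. The day 1 value rested on day 1 culture 2, and within it on a single cell, which held 90.1% of the day 1 reads once cells were thinned to equal depth. Of the 2 deposited files, a possible batch, the first gave a log2 difference of 6.04 and the second -12.27 for day 7 against day 1, so that no direction can be given for Bmp4.

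Bmpr1a was read at 83.3, 40.2 and 61.6 CPM on day 1, at 63.5, 28.4 and 52.8 CPM on day 3 and at 83.99, 25.1, 33.96, 41.2 and 45.1 CPM on day 7. All 3 days overlapped, and the log2 difference of day 7 from day 1 was -0.43 (SE 0.38). Smad9, a transducer, was read in 1 cell of day 1 (43 reads, culture 1), in 1 cell of day 3 (5 reads, culture 1) and in none of day 7. Against a floor of 3 reads over the day 7 cultures together, the day 1 level was at least 29.7-fold higher. This ratio rests on the 1 cell of day 1, which was among the cells with hair cell transcripts described at the end. A change over the week cannot be told from the presence of that cell. Smad9 did not pass the filter on low counts and was not fitted.

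Smad6 and Smad7, the inhibitory Smads, stayed at a few CPM. Smad6 was at 3.05, 1.98 and 3.90 CPM on day 1, at 2.97, 3.48 and 3.22 CPM on day 3 and at 3.41, 2.67, 4.08, 6.87 and 2.67 CPM on day 7. Smad7 was at 1.25, 1.47 and 1.21 CPM on day 1, at 1.87, 2.77 and 0.971 CPM on day 3 and at 3.38, 1.45, 1.26, 2.24 and 5.49 CPM on day 7. Both overlapped between all days, and their log2 differences of day 7 from day 1 were 0.41 (SE 0.53) and 1.08 (SE 0.72). The highest day 7 culture was culture 4 for Smad6 and culture 5 for Smad7.

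Id1 was at 5.52, 2.51 and 7.65 CPM in day 1 cultures 1 to 3, at 21.3, 16.9 and 19.7 CPM in day 3 cultures 1 to 3 and at 150.5, 120.4, 52.97, 56.3 and 173.1 CPM in day 7 cultures 1 to 5. The 3 days did not overlap at any point, and Id1 was the single member to separate days 1 and 3, with every day 3 culture above every day 1 culture, as had 9.88% of all genes. The log2 difference was 1.90 (SE 0.49) for day 3 against day 1, 4.42 (SE 0.52) for day 7 against day 1 and 2.52 (SE 0.47) for day 7 against day 3. Day 7 cultures 3 and 4 were the lowest of their day and still above the highest day 3 culture.

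Id2 was at 36.7, 58.7 and 84.8 CPM on day 1, at 103.1, 89.8 and 73.1 CPM on day 3 and at 318.9, 345.7, 247.1, 137.6 and 369.8 CPM on day 7. Days 1 and 3 overlapped, and day 7 lay above both, with culture 4 the lowest. The log2 difference was 2.24 (SE 0.35) from day 1 to day 7 and 1.68 (SE 0.34) from day 3 to day 7.

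Id3 was at 22.1, 27.8 and 48.7 CPM on day 1, at 84.01, 65.7 and 30.5 CPM on day 3 and at 649.2, 493.1, 188.7, 160.9 and 546.4 CPM on day 7. Days 1 and 3 overlapped through day 3 culture 3, and day 7 lay above both, with cultures 3 and 4 again the lowest. The log2 difference was 3.63 (SE 0.56) from day 1 to day 7 and 2.76 (SE 0.53) from day 3 to day 7.

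Id4 went the other way. It was at 28.6, 10.6 and 17.5 CPM on day 1, at 12.9, 5.28 and 4.52 CPM on day 3 and at 9.33, 2.41, 1.08, 1.38 and 5.41 CPM on day 7. Every day 7 culture lay below every day 1 culture, at 0.207 times its mean, and day 3 overlapped with both. The log2 difference of day 7 from day 1 was -2.27 (SE 0.67), and it was -3.07 in the first file and -1.37 in the second.

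Levels of different genes were compared per kilobase of exon, the union of all exons in GENCODE M21. It was 1.16 kb for Id1, 2.44 kb for Id2, 1.79 kb for Id3 and 3.85 kb for Id4. The transcripts in use were not determined, and the order depends on these lengths. Id3 was the highest Id gene on day 7 with 227.6 ± 122.9 CPM per kb (SD, n = 5). Id2 followed with 116.4 ± 38.5 and Id1 with 95.4 ± 46.97 CPM per kb, neighbours in the order that lie within each other's spread. Id4 was at 1.02 ± 0.902 CPM per kb. On day 1 the order was Id2 with 24.6 ± 9.86, Id3 with 18.4 ± 7.83, Id4 with 4.91 ± 2.36 and Id1 with 4.51 ± 2.22 CPM per kb (n = 3). Id1 and Id4 were level on day 1 and far apart on day 7.

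Calls were made with edgeR's quasi-likelihood test over 17466 genes, at a p under 0.05 after Benjamini-Hochberg adjustment. Between days 7 and 1, 4 of the 9 members tested were called, Id1, Id2 and Id3 higher and Bmp2 lower, beside 7.11% of all genes tested (3.55% higher and 3.56% lower). Id4 was not called there, and was called in 6 of 22 alternative settings. Between days 7 and 3 the same 4 members were called, beside 0.968% of all genes (0.183% higher and 0.784% lower), and between days 3 and 1 none was, beside 0.0115% of all genes. The members were chosen with these contrasts known, so nothing is read from the counts.

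Within the first and the second file alone, the log2 differences of day 7 from day 1 were 4.05 and 5.12 for Id1, 2.79 and 2.37 for Id2, and 4.02 and 3.84 for Id3. No member was called in the first file, which holds 1 culture of day 1. For day 7 against day 3, no member was called without day 3 culture 1, 2 or 3 or without day 7 culture 1 or 2, and 2 were called without day 1 culture 2 or day 7 culture 5.

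Single cells gave the share of cells with a read and the reads per cell. At a fixed depth the share itself rises with the amount per cell, and a cell without a read may hold transcript, so that the quantities are not independent. Cells were thinned to 200000 reads each, which left 37 to 85 cells per culture. The share of cells with an Id1 read was 15.4%, 8.24% and 18.4% in the day 1 cultures, 34.5%, 25.8% and 26.4% in the day 3 cultures and 97.4%, 78.4%, 75.4%, 56.4% and 89.3% in the day 7 cultures. The means were 14.01 ± 5.23%, 28.9 ± 4.89% and 79.4 ± 15.6% (SD, n = 3, 3 and 5), and the days did not overlap. Cells with a read also held more of it, with a median of 4.5, 7 and 20 Id1 reads on days 1, 3 and 7. On day 1 the 10% of cells with the most Id1 held 96.7% of its reads, against 75.5% on day 3 and 35.6% on day 7.

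The share of cells with an Id3 read was 28.2 ± 5.46% on day 1, 43.8 ± 13.9% on day 3 and 88.4 ± 14.9% on day 7, with day 7 culture 4 at 62.8% and the other 4 at 88.4% or more. Id2 was read in 66.4 ± 10.3%, 84.7 ± 1.53% and 97.9 ± 2.18% of cells, and the median Id2 count over all cells, those at 0 included, was 4, 9 and 47 on days 1, 3 and 7. Id4 was read in 32.7 ± 8.53%, 22.8 ± 9.41% and 10.6 ± 5.02% of cells, and its cells with a read had a median of 7.5, 5 and 4.5 reads. Without thinning, the mean shares on days 1, 3 and 7 were 13.9%, 28.9% and 82.3% for Id1, 73.4%, 87.3% and 97.9% for Id2, 33.7%, 45.7% and 88.96% for Id3 and 33.6%, 23.8% and 15.5% for Id4.

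**Figure D2:**
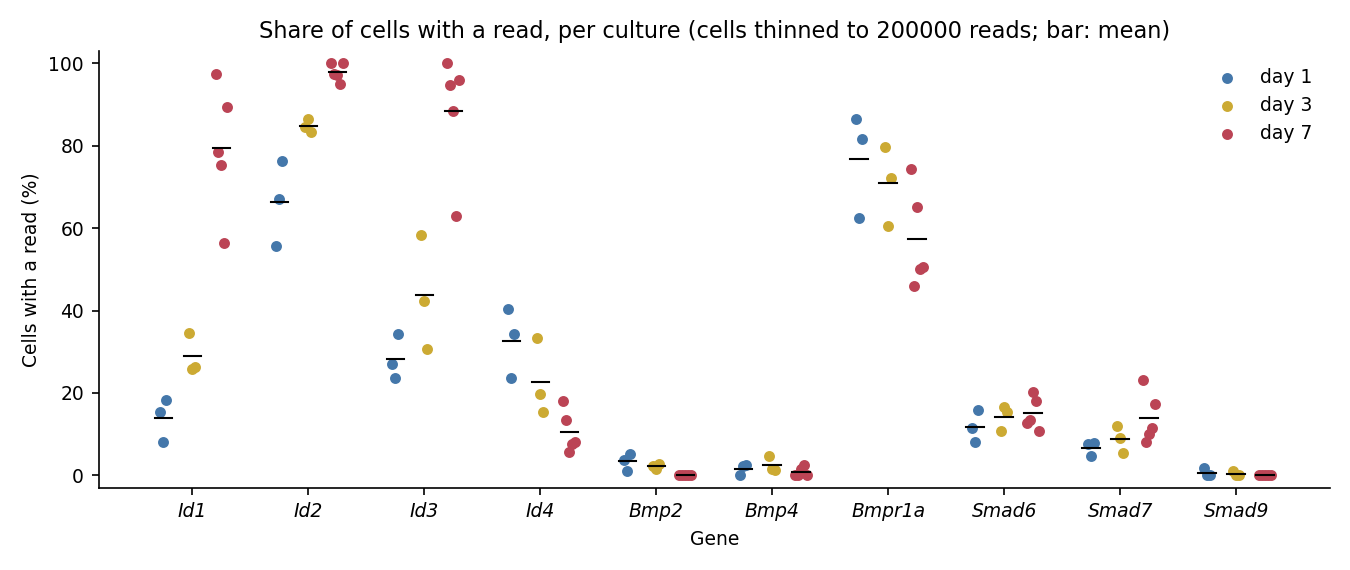
Percent of cells with at least 1 read of each gene, per culture, after thinning every cell to 200000 reads (1 point per culture, coloured by day; bar, mean of the cultures). Id1 goes from a mean of 14.01% to 79.4% of cells and Id3 from 28.2% to 88.4%, while Id4 goes from 32.7% to 10.6%.

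Bmpr1a was read in 76.8 ± 12.8%, 70.9 ± 9.65% and 57.2 ± 12.04% of cells on days 1, 3 and 7, with overlap between the days. Smad6 was read in 11.9 ± 3.79%, 14.2 ± 3.11% and 15.05 ± 3.95% and Smad7 in 6.76 ± 1.79%, 8.85 ± 3.18% and 14.04 ± 6.11% of cells. The ligand genes were in few cells. Bmp2 was read in 2.86% of all day 1 cells and 2.25% of all day 3 cells, 5 cells each, and in 0 day 7 cells, which at this depth allows up to 1.01% of cells with a read (3 cells of the total). Without thinning, 1 day 7 cell had a Bmp2 read, and the shares per culture averaged 3.97 ± 2.91%, 3.04 ± 0.426% and 0.278 ± 0.621% on days 1, 3 and 7. Bmp4 was read in 3, 6 and 3 cells on days 1, 3 and 7.

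In most cultures, cells with 1 of the 3 Id genes tended to hold the others. Id1, Id2 and Id3 were all read in 9.55 ± 3.64% of the cells of a day 1 culture, 20.1 ± 8.80% on day 3 and 75.4 ± 21.3% on day 7 (mean ± SD over cultures). Over all cells of a day the shares were 8.57%, 20.7% and 72.1%, where the product of the 3 single shares is 2.22%, 11.1% and 64.7%. The share of cells with none of the 3 was 28%, 9.91% and 1.68%.

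**Figure D3:**
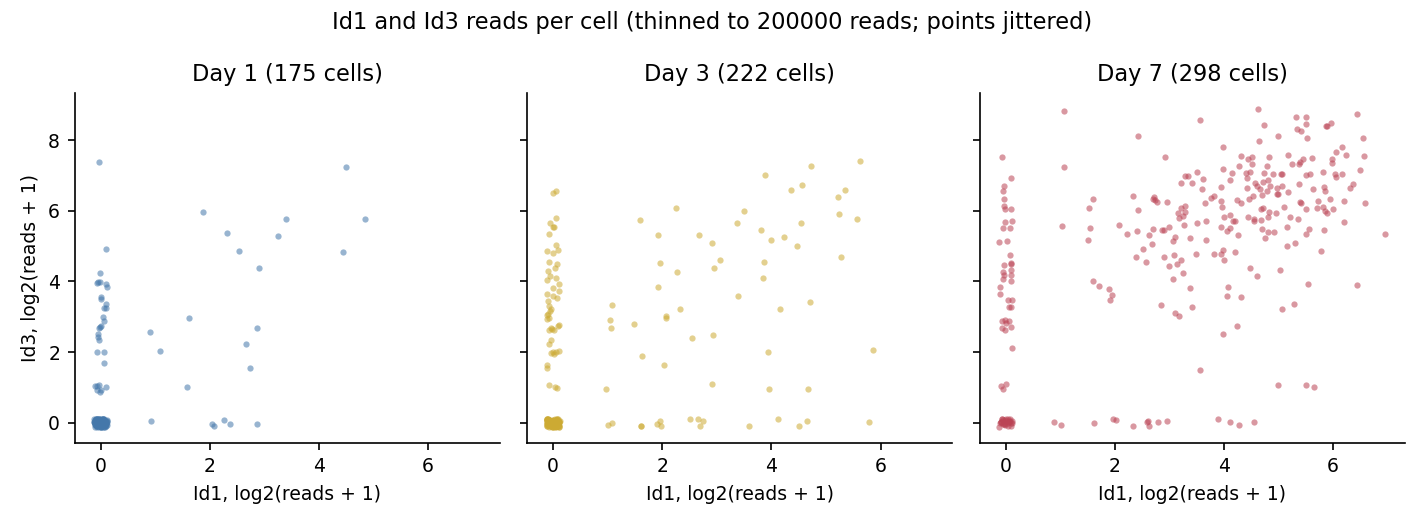
Id1 (horizontal axis) and Id3 (vertical axis) in single cells, as log2(reads + 1) after thinning to 200000 reads, for the cells of days 1, 3 and 7 (1 point per cell, jittered). Most day 1 cells sit at 0 for both genes, and most day 7 cells hold reads of both.

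Within cultures, the level of these genes also varied together from cell to cell. Over all thinned cells, with the mean of each culture removed from log2(CPM + 1), Pearson's r was 0.461 between Id1 and Id3, 0.371 between Id2 and Id3 and 0.328 between Id1 and Id2. Each of these correlations was positive in 11 of 11 cultures, at 0.289 to 0.603, 0.0794 to 0.646 and 0.229 to 0.495. Cells of a culture share their source and were brought to 1 depth, and the correlations are given as a description. Id4 showed no such relation, with r of 0.07 to Id1, 0.03 to Id3 and -0.08 to Id2.

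Among 9231 other genes read in at least 20% of these cells, those most like Id1 were Id3 (r of 0.461), Id2 (0.328), Skp1a (0.234), Gata3 (0.226) and Cib2 (0.219). Those most like Id3 were Id1, Id2, Gata3 (0.248), Jag1 (0.225) and Ppt1 (0.209). Those most like Id2 were Gata3 (0.372), Id3, Gjb2 (0.335), Sfrp1 (0.332) and Id1. Gata3 encodes a transcription factor that the inner ear needs, Jag1 a Notch ligand, Gjb2 a cochlear gap junction protein and Sfrp1 a secreted Wnt modulator. The top gene was Neat1 (0.285) for Id4, Kdm4b (0.201) for Smad6 and Cmip (0.153) for Smad7. The value for Neat1 was above those of Id1 and Id3 with any gene outside the Id family. Values of this size, those of Id1 and Id3 with such genes included, are weak, and nothing is read from them.

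Whether Id levels went with proliferation was examined within cultures. The class of cycling cells and the test were chosen with earlier results of these data known. Cells were counted as cycling when 3 or more of the 6 genes Birc5, Ccnb2, Cdk1, Mki67, Top2a and Tpx2 had a read. Cycling cells were 16.5% to 23.7% of the cells of day 1 cultures, 54.2% to 67.9% on day 3 and 26.7% to 86.96% on day 7. In 11 cultures with the culture as a block, 0 of the 7 members tested were called between cycling and other cells (edgeR), where 12.9% of the 13230 genes tested were. None of the 7 had an unadjusted p under 0.05 over the 11 cultures, as had 25.2% of all genes tested, and DESeq2 called none of them and 2730 genes in all.

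Id1 was higher in cycling cells in 6 of 11 cultures, with a log2 difference of -0.02 (SE 0.45, edgeR adjusted p = 0.985). Id2 was higher in 8 of 11 (0.26, SE 0.20, edgeR adjusted p = 0.476), Id3 in 6 of 11 (-0.24, SE 0.37, edgeR adjusted p = 0.762) and Id4 in 2 of 11 (-0.79, SE 0.46, edgeR adjusted p = 0.318). These SEs leave room for differences larger than the estimates, so the cells are not shown to be alike. In day 7 culture 1, other cells were at 192.3 and cycling cells at 117.6 CPM of Id1, and in day 7 culture 3 at 37.3 and 54.8 CPM. With day 7 cultures alone the Id1 difference was -0.12 (SE 0.19), with day 3 cultures alone 0.62 (SE 0.30) and with day 1 cultures alone -2.78 (SE 2.55), the last from 9 to 14 cycling cells per culture. Id2 was higher in cycling cells in 3 of 3 day 3 cultures, by 0.64 (SE 0.21, unadjusted p = 0.0235, edgeR adjusted p = 0.192), and differed by 0.21 (SE 0.18) in the day 7 and -0.05 (SE 0.48) in the day 1 cultures alone. For the rest, Bmpr1a differed by 0.07 (SE 0.17), Smad6 by 0.08 (SE 0.63) and Smad7 by -0.56 (SE 0.77). The class itself separated, with Mki67 higher by 6.67 (SE 0.64, edgeR adjusted p = 7.64e-06).

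**Figure D4:**
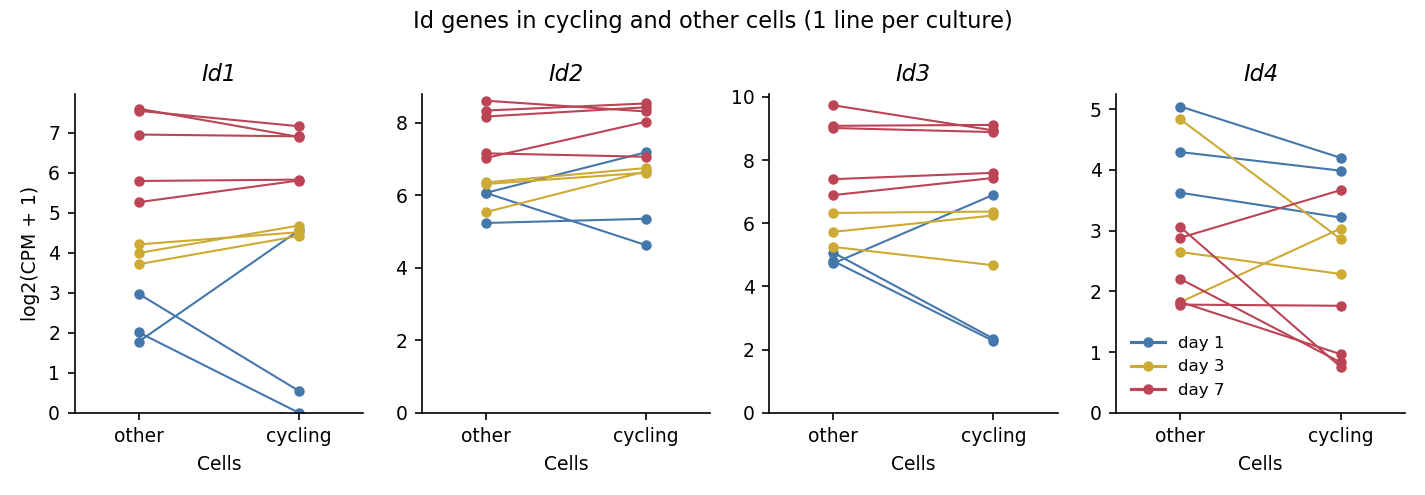
Level of the 4 Id genes, as log2(CPM + 1), in the summed cycling cells and the summed other cells of each of the 11 cultures (1 line per culture, coloured by day). The lines run in both directions for Id1 and Id3 (6 of 11 up), and the days stay apart for Id1 in the other cells.

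The day 7 cultures differed in their share of cycling cells. It was 56.4%, 43.2%, 86.96%, 73.1% and 26.7% in cultures 1 to 5, and cultures 3 and 4, with the most cycling cells, were those with the least Id1 and Id3. Within culture 3, Id1 was at 54.8 CPM in cycling and 37.3 CPM in other cells, and in culture 4 at 55.6 and 54.3 CPM. Id3 was at 192.5 and 167.4 CPM in culture 3 and at 171.9 and 117.7 CPM in culture 4. The other cells were 9 in culture 3 and 21 in culture 4. The part of the cycling cells in the lower levels of these cultures was not tested.

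On day 7 some cells carried transcripts of Ogn, Ednra, Heyl and Rlbp1, a class taken from earlier results of these data and defined here by a read in at least 3 of the 4. Its share was 46.2%, 48.6%, 4.35%, 17.9% and 24% in cultures 1 to 5. Summed in the 4 cultures with at least 5 such cells, Id1 was at 127.7 ± 43.7 CPM in the class and 124.2 ± 57.1 in other cells (SD, n = 4). Id3 was at 469.6 ± 214.4 and 464.9 ± 219.1 CPM, and Id2 at 261.3 ± 72.9 and 311.5 ± 123.2 CPM. With edgeR, 0 of 7 members were called, also at an unadjusted p under 0.05 and with DESeq2, but edgeR called 0.0% of the 12976 genes tested, the class genes among them. An unadjusted p under 0.05 was found for 4.18% of these genes, and DESeq2 called 57. The log2 differences were 0.14 (SE 0.29) for Id1, -0.18 (SE 0.16) for Id2 and 0.12 (SE 0.25) for Id3.

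For the rest of the pathway, a list of 66 genes in 6 groups, none a member, was read against the same fit, and 47 of them passed the low count filter. Between days 7 and 1, 3 rose (Bmp7, Hey1 and Gata3) and 3 fell (Fst, Acvr2a and Ppm1a), 6 of 47 in all, where 7.11% of all genes were called. The list was written with earlier results of these data known. Its calls and adjusted p-values for the days are therefore a description and support nothing further. Its median log2 difference was -0.41, against 0.00 for all genes tested. Counts of fitted directions by group are given below without their share over all genes. They include genes with a wide SE, such as Chrd (-1.50, SE 1.26), and nothing is read from them.

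Bmp7, a BMP ligand gene, rose from 150.5, 98.04 and 107.2 CPM on day 1 to 297.5, 351.3, 497.98, 307.9 and 260.3 CPM on day 7. The log2 difference was 1.53 (SE 0.26, edgeR adjusted p = 0.00667), with no overlap. It was also higher than on day 3 (1.35, SE 0.26, edgeR adjusted p = 0.0344), where it had been at 175.3, 98.8 and 130.7 CPM. Of the other 4 ligand genes tested none was called, and Bmp6 differed by -0.27 (SE 0.36) between days 7 and 1.

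Of 14 extracellular and other antagonists tested, 12 had a fitted difference below 0 between days 7 and 1, with a median of -1.08, and 1 was called. This was Fst, encoding follistatin, which binds activins and some BMPs. It was at 138.3, 55.6 and 77.8 CPM on day 1, at 13.97, 11.7 and 6.29 CPM on day 3 and at 0.960, 1.85, 3.22, 0.206 and 7.21 CPM on day 7. The fall was -5.06 on the log2 scale (SE 0.79, edgeR adjusted p = 0.00390), and no culture of day 3 or day 7 reached those of day 1.

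Of 8 receptor genes tested, 7 had a fitted difference below 0 (median -0.49) and 1 was called. Acvr2a, a type II receptor gene for activins and BMPs, went from 46.6, 21.3 and 22.1 CPM on day 1 to 14.7, 7.19, 9.92, 5.87 and 10.8 CPM on day 7 (-1.63, SE 0.38, edgeR adjusted p = 0.0254). The day 1 mean rested in part on culture 1, and without it the edgeR adjusted p was 0.130, the range over 22 alternatives being 0.000713 to 0.431. Among 9 transducers, Ppm1a, a phosphatase gene, fell by 0.88 (SE 0.21, edgeR adjusted p = 0.0283). It was the smallest of the 6 calls and the sixth by adjusted p, and is named beyond the top 5 because it completes the count. It was called in 13 of 22 alternatives, and not without day 1 culture 1 or 2 or day 7 culture 2 or 3, where the edgeR adjusted p reached 0.126. Smad1 (-0.18, SE 0.37), Smad5 (0.34, SE 0.35) and Smad4 (0.26, SE 0.50), which carry the signal to the Id genes, were not called.

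Of 8 target genes tested, 6 had a fitted difference above 0 between days 7 and 1 (median 1.29) and 2 were called. Hey1, a target of Notch as well as of BMP signalling, was at 83.7, 107.2 and 110.1 CPM on day 1 and at 363.3, 458.5, 202.1, 245.8 and 378.5 CPM on day 7 (1.72, SE 0.30, edgeR adjusted p = 0.00731). Gata3 was at 219.7, 296.03 and 323.5 CPM on day 1 and at 715.7, 693.03, 636.6, 375.6 and 775.5 CPM on day 7 (1.19, SE 0.25, edgeR adjusted p = 0.0175). Neither overlapped between the days. Without day 1 culture 1 neither was called, and without day 1 culture 2 Gata3 was not, with an edgeR adjusted p of up to 0.0997 for Gata3. Culture 4 was the lowest of day 7 for Gata3 and culture 3 for Hey1. The E protein genes Tcf3 (0.44, SE 0.26), Tcf4 (0.12, SE 0.36) and Tcf12 (-0.55, SE 0.35), whose products the Id proteins bind, were not called.

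**Figure D5:**
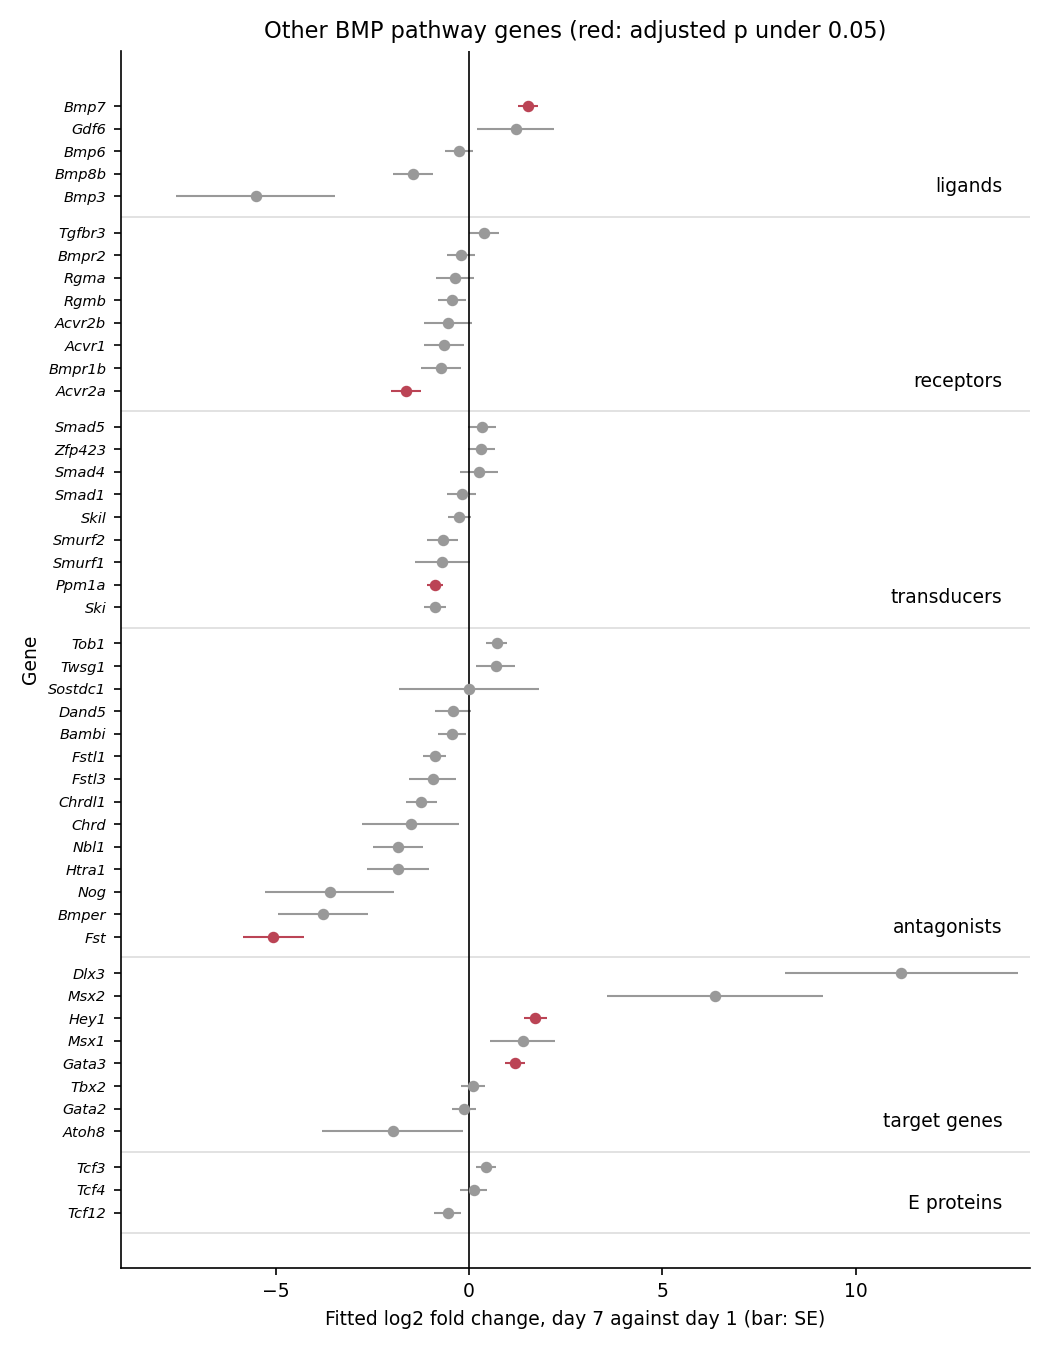
Fitted log2 fold change of day 7 against day 1 (horizontal axis; bar, SE) for the 47 other BMP pathway genes tested, grouped by role. The 6 genes with an adjusted p under 0.05 are red: Bmp7, Hey1 and Gata3 to the right of 0 and Fst, Acvr2a and Ppm1a to the left.

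Between days 3 and 1, 0 of the 47 genes were called with edgeR, 5 had an unadjusted p under 0.05 and DESeq2 called 0. Between days 7 and 3, 2 of 47 were called, Bmp7 and Hey1 (1.49, SE 0.30, edgeR adjusted p = 0.0397), where 0.968% of all genes were. The count for days 7 and 1 went from 6 to 2 without day 1 culture 1. For days 7 and 3 it went from 2 to 0 without day 1 culture 3, day 3 culture 2 or 3, or day 7 culture 1 or 2, and to 1 without day 1 culture 1 or 2, day 3 culture 1 or day 7 culture 5.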

How the data were processed

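SmartSeq2 libraries of 768 single cells were analysed. The authors deposited expected counts, estimated reads per gene and cell without normalisation, in 2 files of 384 cells each. Per the submitters' processing notes, STAR 2.5.3a, RSEM 1.3.0 and the build mm10 (GRCm38) were used. Of the values above 0, 10.6% were not whole, and expected counts were rounded. ERCC and transgene rows (0.00457% of reads) were left out. Cells with at least 50000 reads, at least 1500 genes and at most 20% mitochondrial reads were retained, which removed 57 and left 711 (182, 228 and 301 on days 1, 3 and 7). Counts were summed per culture and fitted over 11 cultures with edgeR 4.0.16 in R 4.3.3 (TMM, filterByExpr, quasi-likelihood F-test, day as the only term). CPM is TMM-scaled, with a pseudocount of 1 on log scales. Classes of cells were summed per culture and fitted with the culture as a block, with at least 5 cells of each class. DESeq2 1.42.0 was an alternative. Shares of cells used cells thinned to 200000 reads (seed 17), 175, 222 and 298 on days 1, 3 and 7, and their 95% intervals are exact binomial. The scripts were tested on simulated data.

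The members, the pathway and marker lists, the cell classes and the tests were chosen with earlier results of these data known. All 10 members are named. Of the pathway list, up to 5 called genes per comparison of days are named by smallest adjusted p, and for Id1 to Id4, Smad6 and Smad7 the 5 genes with the highest correlation over thinned cells, predicted genes passed over, were ranked. Bmp4 and Smad9 were read in too few cells for such a ranking. The first file, taken as a batch beside the second, holds day 1 culture 1, day 3 culture 1 and day 7 cultures 1 to 4, and the second holds the other 5 cultures. Gene positions were used for genes with the same identifier and version in GENCODE M21, as had 93.2% of all genes.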

Additional observations from a re-analysis of the deposited data

Results flagged for a closer look

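Of 15 day 7 sets of values examined, 1 held a culture apart from the rest. Bmp2 was at 0.0181 CPM in day 7 culture 3 and at 0 in the other 4 cultures, which comes from 1 read. With the other 4 cultures at 0, any read sets the remaining culture apart, so no chance rate applies to this flag. Smad9, at 0 in every day 7 culture, could not be flagged. The Bmp2 read was not tested further.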

How the results depend on the processing

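Of the log2 differences of the members and of the pathway genes named by rank under all alternatives, 89.97% kept their value within the spread between cultures (members) or their call (pathway genes). Another 44 member values moved further, 31 calls of pathway genes were lost with the same direction, and no call changed sign. Of the shares of cells, 54 stayed within the spread between cultures and 6 moved. For day 7 against day 1, the count of pathway genes called (6) was 13 with DESeq2, 10 with cells thinned to equal reads, 0 in the first file alone and 2 in the second file alone, and the members called (4) were 0 in the first file alone and 6 with cells thinned to equal reads, the highest count, with Id4 called in 6 and Bmp4 in 1 of 22 settings. For day 7 against day 3, the pathway genes called (2) were 4 with DESeq2 and 0 in either file alone, and the members called (4) were 2 with the file as a covariate and 0 in either file alone. For day 3 against day 1, DESeq2 called 1 member, Id1. Leaving out each culture in turn gave 2 to 7 pathway genes and 4 to 5 members for day 7 against day 1, and 0 to 3 pathway genes and 0 to 3 members for day 7 against day 3. Each file alone has fewer cultures, 1 of day 1 and 1 of day 3 in the first and 1 of day 7 in the second. The cause of the other changes was not tested.

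The replicate numbers were checked for pairing between days. Deviations of same-numbered cultures correlated at -0.0101 to 0.0614 and those of differently numbered ones at -0.0851 to 0.0716. Of 9 cultures, 5 correlated best with their own number. Pairing is thus neither shown nor excluded, and the main fit did not use it. With the replicate block, the pathway genes called for day 7 against day 3 were 1 and the members called were 0. The other settings for cells with hair cell transcripts were not run, since no 3 cultures had 5 such cells. Bmp4 was read in 3, 6 and 3 cells on days 1, 3 and 7 and Smad9 in 1, 1 and 0, both thinned and not, while Bmp2 on day 7 (0 cells and 1 cell) and Id4 on day 7 (9.40% and 14.6% of all cells) changed with depth. The 2 alternatives added after seeing the data were the cycling test within each day and DESeq2 for the Ogn class.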

Other observations

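A small group of cells carried hair cell transcripts, taken as cells in which 2 or more of the 5 genes Pou4f3, Pvalb, Myo7a, Atoh1 and Gfi1 had a read after thinning. There were 11 such cells in day 1 culture 1 and day 3 cultures 1 to 3, with 2, 2, 3 and 4 cells, too few per culture for a test. Day 7 culture 4 held 1 more, which is not in the values given. Id1 was read in 11 of the 11 (exact 95% interval 71.5% to 100%) and in 23.6% of the other cells of the same cultures (18.6% to 29.2%). Its mean was 118.6 CPM in the group and 12.8 CPM in the other cells. Id3 was read in 9 of 11 and in 39.5% of the other cells, with 138.2 and 47.9 CPM. Id2 was read in 9 of 11 and in 79.1%, and Id4 in 5 of 11 and in 25.9%. Bmp2 was read in 2 of 11 and in 1.90% of the other cells, and Bmp4 in 0 of 11 and in 2.28%. Bmpr1a was read in 7 of 11 and in 74.9%. Smad6 was read in 1 of 11 and in 13.7% of the other cells, and Smad7 in 1 of 11 and in 8.75%. Smad9 was read in 1 of 11, the only day 1 cell with its reads, and in 0.380% of the other cells. The 11 cells come from 4 cultures, and the intervals cover counting error and not the spread between cultures.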
